A study of Arabidopsis thaliana with 9 samples.

Results

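Root class III peroxidases were followed in seedlings of Arabidopsis thaliana, accession Col-0, as 10 listed loci of the 33557 loci in the deposited tables and of the 73 genes numbered in this family. The loci were chosen by identifier, as family members known to be expressed in root, in a list drawn up with levels and doxycycline differences of these tables already seen. Their values with doxycycline against control are therefore a description, with no test. All 9 libraries came from 14-day-old seedlings grown on solid MS medium and then given liquid MS medium for 12 h in the light. The groups, with 3 biological replicates each, were untreated wild type, wild type with 25 µg/ml doxycycline in the liquid, and the mutant mrpl1-1 in liquid without the drug. Doxycycline blocks translation on the bacterial-type ribosomes of mitochondria and also of plastids, so it is not specific to mitochondria. By its title the series asks how transcripts respond to impaired mitochondrial translation. Whole seedlings were extracted, so roots contributed only part of each RNA pool, and fewer root cells and less RNA per root cell cannot be told apart.

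Class III peroxidases are secreted haem enzymes of land plants. In the cell wall they use hydrogen peroxide to couple phenolics and the tyrosines of extensins, which stiffens the wall, and in another cycle they release hydroxyl radicals that cut wall polymers and loosen it. Root hairs, which are tip-growing outgrowths of epidermal cells, depend on both activities, with peroxide coming from NADPH oxidases. Among the 10 genes, PRX44 (AT4G26010) and PRX73 (AT5G67400, annotated as root hair specific 19) are known for root hair growth, and PRX69 (AT5G64100) for root hair growth in the cold. PRX57 (AT5G17820) is a target of UPBEAT1, a repressor of peroxidase genes in the root tip. PRX03 (AT1G05260) is RARE COLD INDUCIBLE 3, known from potassium starvation and cold. PRX07 (AT1G30870), PRX27 (AT3G01190), PRX35 (AT3G49960), PRX45 (AT4G30170) and PRX70 (AT5G64110) are given here without a role of their own.

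The 9 libraries held about 3.31 to 8.52 M reads (M, 1e6) on genes, estimated from the smallest steps between FPKM values. At that depth between about 31 reads (PRX70, wild-type replicate 3) and 1615 reads (PRX69, mrpl1-1 replicate 2) lay behind each of the 10 genes in each library. The first principal component, with 23.9% of the variance, set mrpl1-1 replicate 2 off from the rest, and the second, with 20.1%, set off wild-type replicate 3. MRPL1 (AT2G42710), taken from background knowledge as the gene behind the mutant's name, had 20.8, 12.8 and 19.8 FPKM in the libraries labelled mrpl1-1 and 20.7, 19.1 and 26.7 FPKM in wild type. Its transcript level gave no check of the label (limma, log2 difference -0.32, adjusted p = 0.931). Root tissue was detectable in every library: the 5 root hair markers other than PRX60 summed to between 15.8 and 66.2 FPKM, and PYK10 (AT3G09260), an abundant root glucosidase, had at least 1050 FPKM throughout. Shoot markers were far more abundant, with 22230 to 45860 FPKM summed over 10 genes.

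In untreated wild type PRX69 had the highest level of the 10 genes, at 121 ± 26.9 FPKM (SD, n = 3). PRX57 followed at 89.0 ± 8.32 FPKM and PRX45 at 73.3 ± 8.44 FPKM, and the replicates of these 3 genes did not overlap with those of the next gene in the order. PRX44 (48.0 ± 12.3 FPKM), PRX27 (36.1 ± 7.75), PRX03 (32.8 ± 1.76), PRX07 (27.5 ± 8.21) and PRX73 (25.5 ± 5.85) formed a middle range in which each gene overlapped with its neighbour. PRX35 (17.6 ± 0.757 FPKM) and PRX70 (8.15 ± 0.917 FPKM) were lowest, each apart from the gene above it. Within the family the 10 genes were not the most abundant, since PRX42 (AT4G21960) alone had 1330 ± 133 FPKM. The 10 genes made up 14.5%, 16.3% and 17.2% of the family's summed FPKM in wild-type replicates 1 to 3, and PRX42 40.5% to 47.4%. With doxycycline the share of the 10 genes was 11.2% to 13.2%, below every wild-type library, and in the libraries labelled mrpl1-1 it was 15.1% to 21.0%.

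**Figure D1:**
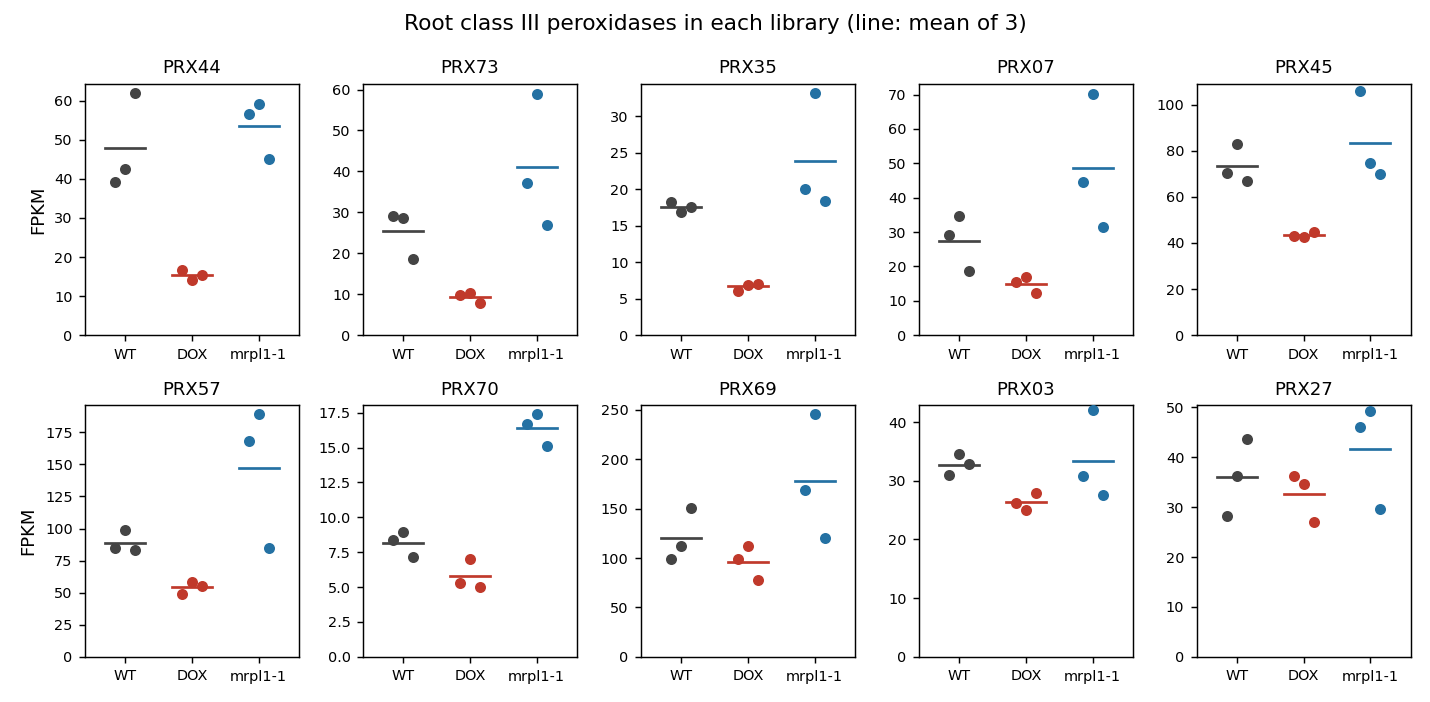
FPKM of each of the 10 root class III peroxidases (vertical axes, from 0) in the 3 wild-type (WT), 3 doxycycline (DOX) and 3 mrpl1-1 libraries; points are libraries and lines are means of 3. The mutant values were put on the scale of the table with doxycycline; all doxycycline points lie below all wild-type points except for PRX27 and PRX69.

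After 12 h of doxycycline all 10 genes had lower mean levels than in untreated wild type, and the size of the difference varied widely, from 32.0% of the control level for PRX44 to 90.7% for PRX27. The 3 genes with the lowest remaining share were PRX44, PRX73 and PRX35. PRX44 (chromosome 4, 13200414 to 13202164, plus strand, TAIR10.1) had 39.3, 42.5 and 62.0 FPKM in the controls and 16.7, 14.2 and 15.3 FPKM with the drug. The groups were far apart, and the treated libraries lay close together. PRX73 (chromosome 5, 26894778 to 26896488, plus strand) had 29.2, 28.5 and 18.7 FPKM in the controls and 9.87, 10.4 and 7.92 FPKM with the drug. Control replicate 3 was the lowest of its group for PRX73 but the highest for PRX44, and neither gene overlapped between groups. PRX35 (chromosome 3, 18524084 to 18525792, minus strand) had 18.3, 16.8 and 17.6 FPKM in the controls and 6.07, 6.88 and 7.07 FPKM with the drug. Both groups were tight for this gene, and 37.9% of the control mean remained. The log2 differences of FPKM + 1 were -1.56 (SE 0.18) for PRX44, -1.33 (SE 0.20) for PRX73 and -1.28 (SE 0.12) for PRX35.

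PRX07, PRX45 and PRX57 kept between 54.2% and 60.9% of their control means. PRX07 (chromosome 1, 10991478 to 10993083, plus strand) had 29.0, 34.8 and 18.6 FPKM in the controls and 15.4, 16.9 and 12.3 FPKM with doxycycline. Its groups were separated by control replicate 3, which lay just above the highest treated library. PRX45 (chromosome 4, 14762819 to 14764636, plus strand) had 70.2, 82.8 and 66.8 FPKM against 43.2, 42.4 and 44.9 FPKM. PRX57 (chromosome 5, 5887871 to 5890260, minus strand) had 85.1, 98.5 and 83.3 FPKM against 49.0, 58.1 and 55.5 FPKM. For both genes the distance between the groups was larger than the range within either group.

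The other 4 genes showed small differences. PRX70 (chromosome 5, 25654074 to 25656067, minus strand) had 8.35, 8.95 and 7.15 FPKM in the controls and 5.26, 7.03 and 5.02 FPKM with the drug, so that the groups almost touched. PRX03 (chromosome 1, 1529767 to 1531484, plus strand) had 31.0, 34.5 and 32.8 FPKM against 26.3, 25.0 and 28.0 FPKM. PRX69 (chromosome 5, 25650567 to 25652247, minus strand) had 99.1, 112 and 151 FPKM against 98.8, 112 and 77.8 FPKM, and its groups overlapped. PRX27 (chromosome 3, 67032 to 68665, minus strand) had 28.2, 36.2 and 43.7 FPKM against 36.3, 34.7 and 27.1 FPKM, and its groups overlapped as well. PRX27 and PRX69 are thus the genes of the 10 whose doxycycline libraries could not be separated from the controls.

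Over the 10 genes the median log2 difference with doxycycline was -0.72, beside a median of 0.0025 over all 19073 genes tested. For 1990 other genes with transcripts of like length (1235 to 1438 nt) the median was -0.03. In 8 of the 10 genes the groups did not overlap and the drug was lower, beside 7.48% of all genes. In the limma fit over all genes PRX35 and PRX44 were among the genes called lower, which were 0.0682% of those tested. Both calls were lost with the replicate number as a block, without wild-type replicate 1 or 2 and without any 1 doxycycline library, and that of PRX44 also with no filter. Since the loci were chosen with this contrast known, nothing is read from these counts. In the order of the levels PRX44 moved from the 4th place in wild type to the 6th with doxycycline, behind PRX27 and PRX03.

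Root hair markers differed alongside. The summed level of the 5 markers other than PRX60 was 37.9 to 39.0 FPKM in the controls and 15.8 to 18.6 FPKM with doxycycline. All 5 tested members of the root hair list, PRX60 included, had a log2 difference below 0, with a median of -1.10, and none passed the test over all genes (limma; 5 had an unadjusted p under 0.05, where 4.65% of all genes were lower at that level). Of this list ARK1 did not reach the minimum level for testing. This list and the further lists below were chosen with earlier results of these data known, so their counts are a description. Inner root markers, of endodermis and stele, summed to 96.3 to 114 FPKM in the controls and 90.5 to 96.2 FPKM with the drug, with a median log2 difference of -0.14 over 8 tested genes. MYB36 had the smallest p of the inner root list, at 4.96 ± 1.44 FPKM with doxycycline against 3.08 ± 0.814 (SD, n = 3; limma, adjusted p = 0.602). Shoot markers had a median of -0.05 over 10 genes. STM had the smallest p of that list, at 3.74 ± 0.747 FPKM with doxycycline against 6.10 ± 1.93 (limma, adjusted p = 0.577). Among the 4 tested genes of root uptake and cortex the median was -0.26, and TIP2;3 (AT5G47450), a tonoplast aquaporin, had 11.5 ± 3.84 FPKM (SD, n = 3) in the controls and 2.91 ± 1.05 with doxycycline (limma, adjusted p = 0.0960). The part of the number of root hairs or root hair cells in the peroxidase values was not tested.

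**Figure D2:**
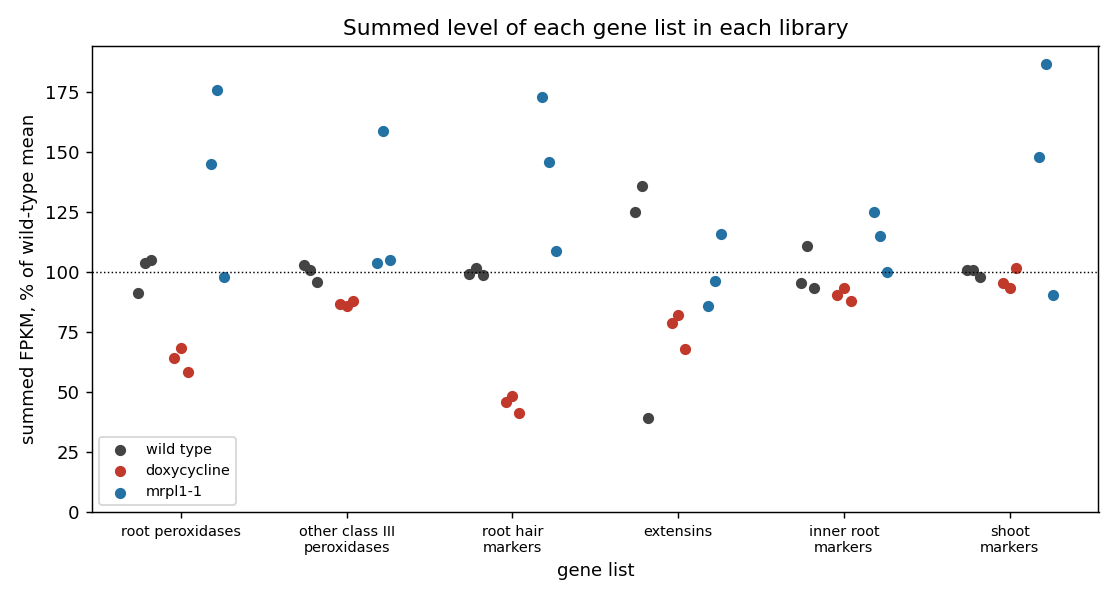
Summed FPKM of each gene list in each library, as a percentage of the wild-type mean (vertical axis), for the 10 root peroxidases, the other 63 class III peroxidases, 5 root hair markers, 14 extensins, 11 inner root markers and 10 shoot markers. Doxycycline libraries lie at 41.3% to 48.5% for root hair markers and at 87.9% to 93.5% for inner root markers; wild-type replicate 3 is low for extensins.

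The second comparison set the libraries labelled mrpl1-1 against wild type. All 10 genes had higher means in the mutant libraries, and none passed the test. The SD in FPKM among the mutant libraries was above that among the wild-type libraries for each gene except PRX44 (7.39 against 12.3). On the scale of the table with doxycycline, PRX70 had 16.7, 17.4 and 15.1 FPKM in the mutant, where wild type had 8.35, 8.95 and 7.15 FPKM. All 3 mutant libraries lay clearly above all 3 controls, and the ratio of the means was 2.01. Its log2 difference was 0.93 (SE 0.17), which did not pass over all genes (limma, adjusted p = 0.383), and the adjusted p lay between 0.327 and 1 over 14 alternatives. PRX35 had 20.0, 33.1 and 18.4 FPKM, and its lowest mutant library lay just above the highest control, 18.3 FPKM (limma, adjusted p = 0.931).

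The remaining 8 genes overlapped between the groups. PRX57 had 168, 189 and 84.9 FPKM in the mutant libraries, of which the third lay inside the wild-type range (limma, adjusted p = 0.931). PRX07 had 44.5, 70.3 and 31.5 FPKM, PRX73 had 37.2, 58.9 and 26.9 FPKM, and PRX69 had 169, 246 and 120 FPKM. In these 4 genes mrpl1-1 replicates 1 and 2 were above all controls and replicate 3 was not. PRX44 (56.6, 59.1 and 45.2 FPKM), PRX45 (106, 74.7 and 70.0), PRX27 (46.1, 49.3 and 29.6) and PRX03 (30.8, 42.0 and 27.5) showed log2 differences of 0.18, 0.17, 0.19 and 0.01. Over the 10 genes the median log2 difference was 0.45, beside -0.000811 over 18994 genes tested and 0.03 over 1981 genes of like length. None of the 10 was called (limma; 0.0369% of all genes were called in either direction). At an unadjusted p under 0.05, PRX07 and PRX70 were higher, where 2.83% of all genes were. Groups did not overlap, with the mutant higher, for 2 of 10 genes, beside 5.09% of all genes. The loci were chosen with earlier results of these data known, so these counts are a description as well.

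The mutant's values rested in part on replicate 2. Without it the median over the 10 genes was 0.25, and without both that replicate and wild-type replicate 3 it was 0.22, with PRX70 at 0.81 and PRX73 at 0.13. Marker lists moved in the same libraries. In mrpl1-1 replicates 1 to 3 the 5 root hair markers summed to 173%, 146% and 109% of the wild-type mean, and the 10 shoot markers to 148%, 187% and 90.7%. A sum gives most weight to the most abundant genes. By gene, 4 of the 10 shoot markers had a log2 difference below 0, and the median of that list was 0.13. Inner root markers summed to 125%, 115% and 100%. The smallest p of each marker list belonged to EXPA7 (log2 difference 0.40), LHCB1.2 (0.71), MYB36 (0.56) and TIP2;3 (-1.05). None of these was called (limma, adjusted p = 0.931 for each). The part of the shifts of the marker lists in the peroxidase values was not tested. Both comparisons use the same 3 wild-type libraries.

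**Figure D3:**
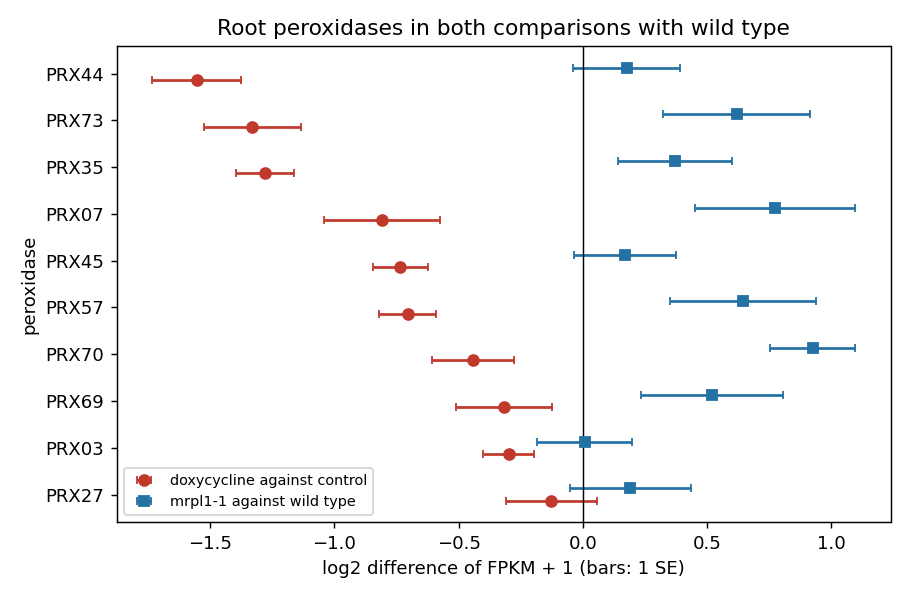
Log2 difference of FPKM + 1 (horizontal axis, bars 1 SE) for each of the 10 root peroxidases with doxycycline against control (circles) and in mrpl1-1 against wild type (squares). The doxycycline values run from -1.56 for PRX44 to -0.13 for PRX27, and the mutant values from 0.01 for PRX03 to 0.93 for PRX70.

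Set directly against the libraries labelled mrpl1-1, with no control in common, the doxycycline libraries were lower for all 10 genes. The log2 differences ran from -1.95 (SE 0.27) for PRX73 to -0.31 (SE 0.17) for PRX03, with a median of -1.36, and 0.00704 over all 19056 genes tested. PRX70 stood at 5.77 ± 1.10 FPKM with doxycycline and 16.4 ± 1.16 FPKM in the mutant (SD, n = 3). In 8 of 10 genes the groups did not overlap, the exceptions being PRX03 and PRX27, beside 9.27% of all genes with doxycycline lower. The fit called 4 of the 10 lower (PRX35, PRX44, PRX70 and PRX73), where 0.278% of all genes were called lower. Of the other class III peroxidases 46 were tested here, and 17 of these were lower without overlap. The fit called 2 of the 46 lower, PRX38 (AT4G08780) and PRX60 (limma, adjusted p = 0.0436 and 0.0472). In the same fit 3 of the 5 tested root hair markers, PRX60 among them, and 6 of 14 extensins were called lower. In fits without 1 library, which were added after seeing the data, 1 to 7 of the 10 genes, 0 to 3 root hair markers and 1 to 6 extensins were called lower, with the fewest without mrpl1-1 replicate 1 or doxycycline replicate 1 and the most without mrpl1-1 replicate 3. With no filter the counts were 1, 0 and 2. With a pseudocount of 5, a filter at 5 FPKM or the replicate block, 1 root hair marker was called. PRX44 was called in all 13 alternatives, and PRX35, PRX70 and PRX73 each lost the call in some. As the doxycycline libraries entered the choice of the loci, these counts are a description.

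The other 63 class III peroxidases show how far the family as a whole went with the 10 genes. Annotation notes mention root for 30 of the 73 family genes, with 7 of the 10 among them. The comparison is therefore not one of root against non-root genes. With doxycycline against control 46 of them reached the minimum level, and none was called (limma). At an unadjusted p under 0.05, 11 of the 46 lay below the controls and 4 above, beside 4.65% and 3.84% of all genes. Their median log2 difference was -0.17, with 31 below 0 and 15 above. The 10 genes had been taken out of the family with this contrast known, so the rest is no independent sample of it. PRX08 (AT1G34510) had 5.27, 5.61 and 2.74 FPKM in the controls and 0.120, 0.748 and 0.470 FPKM with the drug (log2 difference -1.92, SE 0.30; limma, adjusted p = 0.0797). It was called without wild-type replicate 3 (limma, adjusted p = 0.0276). PRX60 (AT5G22410), annotated as root hair specific 18, had 6.52, 5.69 and 6.70 FPKM against 1.81, 2.82 and 1.92 FPKM (adjusted p = 0.0736). Both genes thus showed no overlap between groups and missed the threshold. PRX10 (AT1G49570) had 23.8 ± 8.65 FPKM (SD, n = 3) in the controls and 12.3 ± 0.504 with doxycycline (limma, adjusted p = 0.446).

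In the other direction PRX25 (AT2G41480), linked to lignin, was at 9.13 ± 1.68 FPKM with doxycycline against 4.16 ± 0.665 (SD, n = 3; limma, adjusted p = 0.144). PRX33 (AT3G49110), an enzyme of the apoplastic oxidative burst, was at 23.9 ± 1.63 FPKM against 15.2 ± 2.16 (adjusted p = 0.207), and PRX67 (AT5G58390) at 19.8 ± 0.369 against 13.2 ± 3.74 (adjusted p = 0.511). The coding sequence of PRX33 shares 90.7% of its bases with the neighbouring PRX34 and a run of 111 identical bases, so reads may be divided between them. PRX34 went the other way, at 90.5 ± 10.2 FPKM with doxycycline against 116 ± 4.83 (limma, adjusted p = 0.479). In mrpl1-1, 48 of the 63 genes were tested and none was called (limma; at an unadjusted p under 0.05, 4 lay above wild type and 1 below, beside 2.83% and 1.63% of all genes), with a median of 0.14. By log2 difference of FPKM + 1 the largest without overlap were PRX38 (AT4G08780; ratio of means 2.07, limma, adjusted p = 0.642), PRX54 (AT5G06730; 2.02, adjusted p = 0.931) and PRX34 (AT3G49120; 1.67, adjusted p = 0.931). PRX38 shares 93.8% of its coding bases with PRX37, so its level is uncertain in the same way. Of the 48 tested peroxidases outside the 10, 5 lay above wild type without overlap in the mutant and 0 below. Over all genes these shares were 5.09% and 5.04%.

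**Figure D4:**
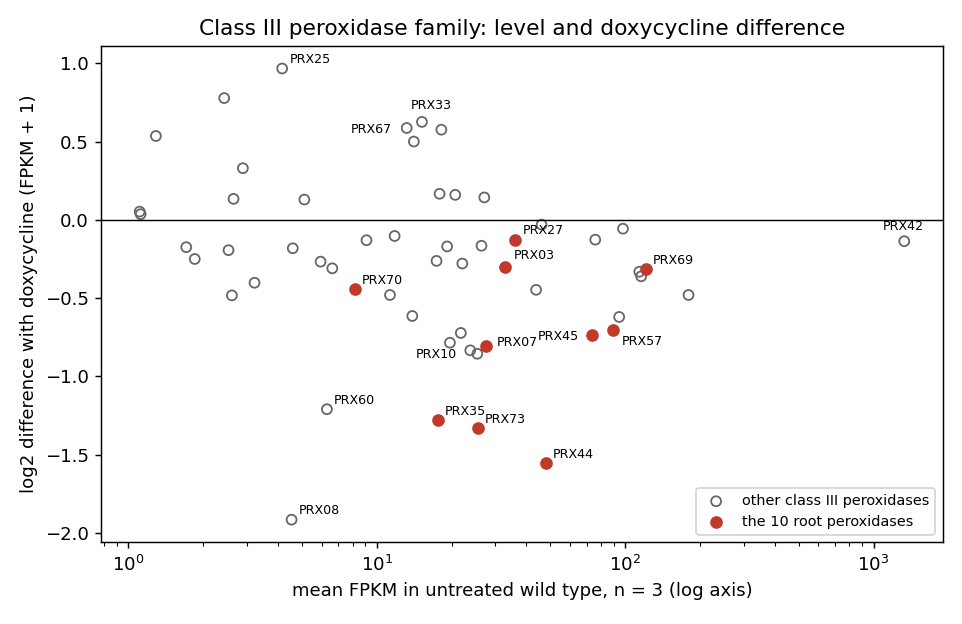
Each tested class III peroxidase by its mean FPKM in untreated wild type (horizontal log axis, n = 3) and its log2 difference with doxycycline (vertical axis, FPKM + 1); filled points are the 10 root peroxidases and open points the 46 others. PRX44, PRX73 and PRX35 lie lowest of the filled points, PRX08 lies lowest of all at -1.92 and PRX25 highest at 0.97.

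Genes that act with these enzymes were taken from further lists. Of 10 NADPH oxidases, which supply the peroxide, 7 were tested with doxycycline, with a median of 0.04. None was called (limma), where 0.184% of all genes were called in either direction. None had an unadjusted p under 0.05, beside 8.49% of all genes, so with 7 genes little can be read from these counts. RBOHC (AT5G51060), the oxidase of root hairs, had 6.63 ± 0.495 FPKM (SD, n = 3) in the controls and 6.39 ± 1.41 with doxycycline (limma, adjusted p = 0.934). RBOHE had the smallest p of the list (3.10 ± 0.155 FPKM against 2.28 ± 0.500, adjusted p = 0.665). In mrpl1-1 RBOHB (AT1G09090) was at 1.90 ± 0.344 FPKM against 4.95 ± 0.387 on the scale of the table with doxycycline (limma, adjusted p = 0.513). This was the largest difference among 6 tested oxidases, of which none was called (1 was lower at an unadjusted p under 0.05, beside 1.63% of all genes).

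Extensins, wall proteins that peroxidases cross-link, were lower with doxycycline in 13 of 14 genes, with a median of -0.92. None was called (limma; 7 were lower at an unadjusted p under 0.05, beside 4.65% of all genes). As this list was chosen with earlier results of these data known, the counts are a description. LRX1 (AT1G12040), a leucine-rich repeat extensin of root hairs, had 12.8, 11.6 and 8.85 FPKM in the controls and 3.88, 5.20 and 3.45 FPKM with the drug (limma, adjusted p = 0.0797). Wild-type replicate 3 had 39.4% of the group's mean for the summed extensins, where replicates 1 and 2 had 125% and 136%, so the control level of this list rests on which libraries are used. In mrpl1-1 all 14 were on the higher side, with a median of 0.29 and no call (limma). None had an unadjusted p under 0.05, beside 4.46% of all genes in either direction. EXT7 had the smallest p (adjusted p = 0.931).

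Of 6 transcription factors of root hair fate or peroxidase repression, 5 were tested and none was called in either comparison with wild type (limma). At an unadjusted p under 0.05, 2 were lower with doxycycline and 1 higher in mrpl1-1, beside 4.65% and 2.83% of all genes. RSL2 (AT4G33880), which promotes hair growth, was at 1.39 ± 0.134 FPKM with doxycycline against 3.13 ± 0.955 (SD, n = 3; limma, adjusted p = 0.450). RSL4 (AT1G27740) was at 0.739 ± 0.312 FPKM with doxycycline and 1.83 ± 0.79 without it (limma, adjusted p = 0.587), close to the minimum level for testing. RHD6 (AT1G66470), which acts earlier in hair formation, had 6.54, 4.46 and 3.78 FPKM in mrpl1-1 and 1.82, 3.35 and 2.76 FPKM in wild type (limma, adjusted p = 0.931). UPB1 (AT2G47270), UPBEAT1, was at 7.51 ± 0.908 FPKM with doxycycline and 9.75 ± 6.23 without it (limma, adjusted p = 0.892), the control spread coming from replicate 3 at 16.9 FPKM.

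Gene structure and sequence were not used in the choice. The first transcript models of the 10 genes have 1235 to 1438 nt, with 4 exons in 6 genes, 3 exons in PRX57 and PRX69, and 2 exons in PRX07 and PRX44. Among the other 63 genes, 44 have 4 exons and PRX08 is the only one with 2 exons. PRX08 is also the closest relative of PRX44, with 76.3% of coding bases identical. PRX35 and PRX73 are each other's closest relatives in the family (78.8%), and both kept less than 40% of the control level with doxycycline. PRX69 and PRX70, neighbours on chromosome 5 with PRX71 beside them, are each other's closest relatives too (70.8%). They had 79.8% and 70.8% of the control level with doxycycline and 148% and 201% in mrpl1-1. Whether these 2 genes differ from each other was not tested. The longest identical run between any of the 10 coding sequences and its closest relative was 31 bases, for PRX44 and PRX08. PRX07, PRX44 and PRX73 each overlap a gene on the other strand, and the sources used here do not give whether counting used strand, so their levels are uncertain.

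The root hair element (RHE), a promoter motif of root hair genes bound by the RSL4 factor, was searched by its published consensus on both strands of the 500 bases before each first transcript model. It was found for 2 of the 10 genes, 2 of the 63 other peroxidases and 1.425% of 31290 genes. The matches lie before PRX73, one of the genes with the largest doxycycline differences, and PRX27, the gene with the smallest. They are shown to give the surroundings of the matches among the 10 genes, which fell on genes at both ends of the range of differences. The stretches are from RefSeq TAIR10.1, 5′ to 3′ on the gene's strand, with the match in capitals.
PRX73, plus strand, 500 to 251 bases before the start (chr5:26894278-26894527): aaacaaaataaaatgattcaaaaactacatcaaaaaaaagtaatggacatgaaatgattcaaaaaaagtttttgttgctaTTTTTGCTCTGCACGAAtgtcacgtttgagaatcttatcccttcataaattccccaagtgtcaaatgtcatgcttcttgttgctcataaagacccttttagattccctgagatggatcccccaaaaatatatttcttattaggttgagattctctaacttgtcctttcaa
PRX27, minus strand, 250 to 1 bases before the start, with the motif on the opposite strand (chr3:68666-68915): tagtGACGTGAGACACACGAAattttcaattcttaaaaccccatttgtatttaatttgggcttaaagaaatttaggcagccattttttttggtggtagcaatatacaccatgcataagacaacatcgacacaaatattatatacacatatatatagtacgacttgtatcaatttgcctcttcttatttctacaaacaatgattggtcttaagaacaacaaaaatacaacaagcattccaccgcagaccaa
A match is a stretch of letters and not a shown binding site. For the other 8 genes these letters are not in the window searched.

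The profile of the 10 genes over the 9 libraries, taken as the mean of their centred log2 values, was lowest in the doxycycline libraries (-0.75 to -0.57) and highest in mrpl1-1 replicates 1 and 2 (0.60 and 0.88). Wild-type libraries lay between 0.05 and 0.19 and mrpl1-1 replicate 3 at 0.16. Of 18283 other genes with at least 1 FPKM in every group, the 6 with the most similar profile had Pearson correlations of 0.969 to 0.990 over the 9 libraries. RHS13 (AT4G02270, root hair specific 13) came first, with 57.1, 61.4 and 66.1 FPKM in the controls, 16.8, 20.9 and 18.5 FPKM with doxycycline and 96.3, 157 and 62.0 FPKM in mrpl1-1. It was followed by BGLU21 (AT1G66270), a root beta-glucosidase, at 0.979, and by AT5G57625, of the CAP superfamily, at 0.978. The others were AT5G12940, a leucine-rich repeat protein (0.977), RAP2.11 (AT5G19790), a factor of the ERF family (0.974), and AT5G05500, a protein of the pollen Ole e 1 allergen and extensin family (0.969). These correlations are descriptions across libraries that fall into 3 groups, and mrpl1-1 replicate 2 has the highest value of the profile.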

How the data were processed

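PolyA RNA was sequenced on an Ion Torrent Proton, per the labels' protocols. The deposited values are FPKM, reads scaled to transcript length and library size, in 2 tables that the authors normalized separately. The submitters' processing notes list TAIR10 as the build, and Cufflinks 2.2.1 and FastQC 0.10.1 as tools without their roles; the sources used here do not give an aligner. Columns were assigned to samples through their names. Wild-type values of the mutant table were 0.94057 to 0.94147 times those of the other table, so tests against wild type stayed inside 1 table, and mutant levels printed beside the others were divided by 0.94058. Depth was estimated from the FPKM worth 1 read among low genes and is approximate.

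Values were tested as log2(FPKM + 1), which understates changes of low genes, with limma 3.58.1 (R 4.3.3, variance trend), for genes averaging 1 FPKM or more; p-values were Benjamini-Hochberg adjusted over all genes, called at 0.05. The fit was tested on simulated data.

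The 10 loci and all lists were chosen with earlier results of these data known. Named are the 10 loci, the called or 3 largest non-overlapping other peroxidases per direction, the smallest-p member of a list and the 6 genes most like the 10. RBOHC, UPB1, RSL4, PRX42 and PYK10 were named in addition, for their roles or levels. PRX numbers are background knowledge; symbols, positions and sequences are from RefSeq TAIR10.1, which held 32810 of 33557 loci. Coding sequences were aligned with Biopython 1.88. Alternatives were pseudocounts of 0.1 and 5, no filter, a filter at 5 FPKM, median-ratio and quantile scaling, a replicate block, and libraries left out.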

Additional observations from a re-analysis of the deposited data

How the results depend on the processing

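The median log2 difference of the 10 genes with doxycycline stayed between -0.774 and -0.626 when each library was left out in turn. Over 13 alternatives 9 of the 10 genes stayed below 0 in each, and PRX27 in 12, with 0.0208 without wild-type replicate 3. In the fit PRX35 was called in 7 of the 13 and PRX44 in 6; neither was called with the replicate block, without wild-type replicate 1 or 2, or without any 1 doxycycline library, and PRX44 not with no filter. PRX45 and PRX73 were called without wild-type replicate 3. For mrpl1-1 the median ran from 0.248 to 0.650 over fits without 1 library, and none of the 10 genes was called in any of 14 alternatives (limma). PRX03 was below 0 with quantile normalization (-0.0484) and without both outlying libraries, wild-type replicate 3 and mrpl1-1 replicate 2 (-0.162), and ran from -0.164 to 0.133 over fits without 1 library; PRX45 ran from -0.0131 to 0.284. Other class III peroxidases called with doxycycline against control numbered 0 or 1 over fits without 1 library.

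Counts over all genes moved more. With doxycycline, 35 calls became 20 with no filter, 7 with the replicate block and 9 to 91 without 1 library, 91 being without wild-type replicate 3. For mrpl1-1, 7 calls became 4 with a pseudocount of 5, 4 with no filter, 2 with a filter at 5 FPKM and 5 to 11 without 1 library. For doxycycline against mrpl1-1, 76 calls became 18 with no filter and 13 to 237 without 1 library. Leaving out both outlying libraries was not run for the comparisons with doxycycline, which hold only 1 of them each. The causes were not tested. Over all tested genes, same-numbered replicates did not deviate together in the comparisons with wild type (correlations -0.0756 to 0.0817), so the numbers were not read as pairs. Doxycycline against mrpl1-1 was not examined in this way. For single genes the block changed the SE with doxycycline in either direction, as for PRX07 (0.233 to 0.137) and PRX35 (0.116 to 0.133). With the block the other counts over all genes were 6 for mrpl1-1 and 80 for doxycycline against mrpl1-1. Root hair markers called lower in the latter comparison went from 3 to 1 with the block. Depth limits PRX70 most, with about 31 reads in its thinnest library.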
